A study of Mus musculus with 24 samples.

Results

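Complement is a cascade of blood proteins that marks cells and microbes for removal, and the 7 genes described here encode components or regulators of it: C2, Cfb, Cfd, C3, Cfi, Serping1 and Gm4788. They were chosen by their levels on these same arrays, so their differences between the groups are given as a description, with errors. How many of their probe sets passed the threshold of the fit is counted beside the share of all probe sets that did, with no p-value for any of them. For 5 of the 7 the array annotation named at least 1 probe set (a group of short probes for one transcript) by that symbol alone, 7 probe sets of 12488 in all: 103673_at and 162366_r_at for C2, 100609_at and 161365_r_at for Cfb, 99927_at for Cfi, 99081_at for Serping1 and 94743_f_at for Gm4788. C3 and Cfd had no probe set under that rule and were not analysed here. Of the 7 probe sets, 6 lay above the 40th percentile of their array on at least 5 arrays and entered the fit, which covered 8397 probe sets, named and unnamed, and among them 6281 genes with a symbol. The one that did not was 162366_r_at, the second probe set of C2.

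The arrays were Affymetrix Murine Genome U74Av2 arrays of mouse cells from brown or white fat in primary culture, taken 4 or 7 days after isolation. The labels call the cells not differentiated at day 4 and differentiated at day 7, and the study set pre-adipocytes beside mature adipocytes of both kinds. There were 5 brown day 4 arrays (numbered 05, 06, 09, 10 and 19) and 5 of brown cells at day 7 (07, 08, 11, 12 and 22). White cells had 8 arrays at day 4 (33, 34, 37, 38, 41, 42, 45 and 51) and 6 at day 7 (35, 36, 39, 40, 43 and 44). Values given in group order run from brown to white and, within each, from day 4 to day 7. The labels give no strain, age, sex, depot or number of animals, name no agent added to the cultures, and do not say which arrays came from separate animals or cultures. The p-values therefore rest on array-to-array spread alone, part or all of which may be technical. Brown and white array numbers do not interleave, so cell type and any difference in handling cannot be told apart. Zic1, a transcription factor gene of brown fat, had a signal of 58.4 to 119 on the brown arrays and lay at the floor (below) on every white array, and Adipoq, the adiponectin gene of fat cells, ran from 732 to 6336 over all arrays.

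Complement can be started by antibody through C1, by sugars through lectins, or by the alternative pathway. All routes build a convertase, an enzyme complex that splits C3: C2 is the protease of the classical and lectin convertase, and factor B (Cfb) that of the alternative one, cut into its active form by factor D (Cfd, adipsin), a product of fat cells. Serping1 encodes the C1 inhibitor, which blocks the first proteases of the classical and lectin routes. Cfi encodes factor I, a protease that cuts C3b and C4b and so ends the convertases, with the help of cofactors. Gm4788 is a gene of a family related to complement regulators. Liver is the main source of most of these proteins in blood, and many other tissues, fat among them, make some of them locally.

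The family relation of Gm4788 bears on its measurement, since its probe set has the suffix f, which marks probes that may bind several transcripts of a family. A RefSeq promoter entry was found for 1 of the 5 measured genes, Gm4788, and one for its relative Cfhr2, another gene of that family with a probe set of the same suffix. Both windows are 250 bases before the gene's start on the minus strand of GRCm38.p6, chr1:139781240-139781489 for Gm4788 and chr1:139858700-139858949 for Cfhr2. They are shown because they let a reader see how alike these neighbouring relatives are. Capitals mark the bases that differ between them or have no partner in the alignment.
Gm4788: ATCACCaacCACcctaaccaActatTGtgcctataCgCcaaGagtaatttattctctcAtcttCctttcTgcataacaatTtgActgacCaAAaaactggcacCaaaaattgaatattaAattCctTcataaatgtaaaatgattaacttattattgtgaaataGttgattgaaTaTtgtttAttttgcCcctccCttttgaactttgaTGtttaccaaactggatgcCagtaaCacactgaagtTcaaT
Cfhr2: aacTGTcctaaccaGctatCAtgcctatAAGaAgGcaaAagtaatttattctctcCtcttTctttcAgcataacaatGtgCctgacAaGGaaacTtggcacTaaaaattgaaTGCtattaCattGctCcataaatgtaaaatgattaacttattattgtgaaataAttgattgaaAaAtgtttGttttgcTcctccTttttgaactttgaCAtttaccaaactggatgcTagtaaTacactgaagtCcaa
Of 243 aligned bases, 211 were identical (86.8%), 32 differed, and 7 bases of each window stayed unaligned. The windows lie before the gene's start, so their likeness does not show which transcripts the probe set binds. Neither window held, on either strand, the TATA box letters TATAAA, the box letters CCAAT, the nuclear receptor half-site AGGTCA, the interferon element GAAANNGAA, the GAS element TTCNNNGAA, the C/EBP letters TTGCNNAA or the kB letters GGGANTTTC. Among 32851 RefSeq windows of the same length these occurred in 12.4%, 33.8%, 14%, 7.13%, 7.02%, 9.56% and 0.941%, in that order. The search says only that these letters are not in these windows.

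C2, Serping1, Cfi and Gm4788 had higher signal at day 7 than at day 4 in both cell types, and lower signal in brown than in white cells at day 4 and at day 7. No Cfb difference passed the threshold of the fit. Signals are the deposited linear values scaled to a trimmed mean of 150 per array. Values under 8.22, the 20th percentile of all deposited values, were set to that floor before log2 was taken, and the scale of one probe set cannot be compared with that of another. Of the 6 probe sets in the fit, 4 passed an adjusted p of 0.05 in brown day 7 against day 4, where 12.1% of all probe sets did, and 4 in white day 7 against day 4, against 19%. In brown against white cells 4 passed at day 4, against 23%, and 3 at day 7 (C2, Serping1 and Cfi, not Gm4788), against 25.2%. None of the 6 passed for the difference of the brown and white changes by limma, against 0.214% (1 had an unadjusted p under 0.05). Nothing is read from these counts, since the genes were chosen by such values. In a culture of mixed cells, more cells of one kind and more RNA per cell cannot be told apart.

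**Figure D1:**
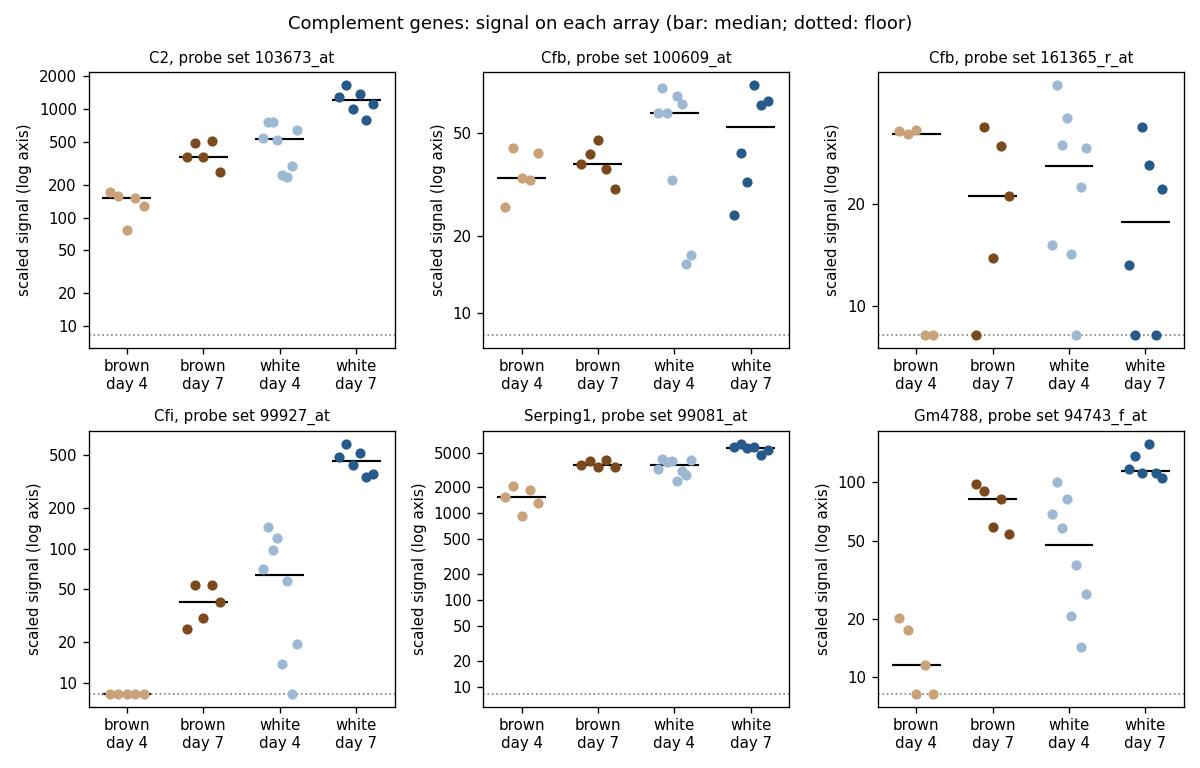
Scaled signal (log axis) of the 6 probe sets in the fit on each of the 24 arrays, by group: each point is an array, in the order of its number, the bar is the group's median and the dotted line the floor of 8.22. For C2, Cfi, Serping1 and Gm4788 both day 7 groups lie above the day 4 group of the same cells, and for both Cfb probe sets the 4 groups overlap.

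C2 separated all pairs of groups except brown day 7 and white day 4. Its signal on the brown day 4 arrays, in the order of their numbers above, was 172, 157, 76.0, 150.3 and 128. On the brown day 7 arrays it was 365, 490.0, 363, 511 and 264, so that every brown day 7 array lay above every brown day 4 array. On the 8 white day 4 arrays it ran from 238 to 768 with a median of 531, and on the 6 white day 7 arrays from 785 to 1669 with a median of 1204. White day 7 was above all other groups, brown day 4 below all others, and brown day 7 overlapped white day 4. The day 7 minus day 4 difference was 1.56 ± 0.30 on the log2 scale in brown cells (± SE of the fit here and below, from 5 and 5 arrays), a 2.95-fold higher signal, and 1.36 ± 0.26 in white cells (8 and 6 arrays), or 2.57-fold. Brown minus white was -1.79 ± 0.27 at day 4 (3.47-fold lower) and -1.60 ± 0.29 at day 7 (3.02-fold lower). The change in brown cells differed from that in white cells by 0.20 ± 0.40, less than its error. The second C2 probe set gave no such picture: it ran from 1.88 to 21.5 over all arrays, lay above the filter on 0 of them and at the floor on 2, 1, 3 and 1 arrays in group order.

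Cfb, next to C2 on the chromosome and the protease of the other convertase, was dim and showed no difference past the threshold. Probe set 100609_at read 25.7, 43.7, 33.4, 32.8 and 41.7 on the brown day 4 arrays and 37.8, 41.6, 47.0, 36.2 and 30.2 on the brown day 7 arrays. It ran from 15.5 to 74.8 with a median of 59.6 at white day 4, and from 24 to 76.8 with a median of 52.9 at white day 7. All 4 groups overlapped. Day 7 minus day 4 was 0.13 ± 0.39 in brown and 0.15 ± 0.34 in white cells, and brown minus white was -0.28 ± 0.36 at day 4 and -0.30 ± 0.38 at day 7. These errors were wider than the differences, and a lack of change was not shown. White day 4 arrays 45 and 51 read 15.5 and 16.8, the lowest of their group. Their mean log2 signal was 4.01, against 6.06, 5.47 and 6.07 for the day 4 arrays of the white runs 33 to 36, 37 to 40 and 41 to 44. The brown minus white difference at day 4 was not past the threshold in 34 of 35 alternative fits, so not in all of them. These were 24 of 24 fits that left out 1 array and 10 of 11 others. Probe set 161365_r_at ran from 5.27 to 45.1 over the 24 arrays and lay at the floor on 2, 1, 1 and 2 arrays in group order. Its differences were 0.01 ± 0.54 in brown and -0.46 ± 0.46 in white cells, and -0.23 ± 0.48 at day 4 and 0.23 ± 0.51 at day 7 for brown minus white. Its sign was thus opposite to that of the first probe set in white cells and at day 7.

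Serping1, the C1 inhibitor, had the smallest errors among C2, Cfb, Cfi, Serping1 and Gm4788. Its signal was 1531, 2053, 918, 1839 and 1301 on the brown day 4 arrays. On the brown day 7 arrays it was 3628, 4026, 3395, 4113 and 3431. It ran from 2385 to 4176 with a median of 3575 at white day 4 and from 4710.0 to 6347 with a median of 5710.0 at white day 7. As for C2, brown day 4 lay below and white day 7 above every array of the other groups, and brown day 7 overlapped white day 4. Day 7 minus day 4 was 1.33 ± 0.17 in brown cells, a 2.52-fold difference, and 0.72 ± 0.15 in white cells, 1.65-fold. Brown was 2.30-fold below white at day 4 (-1.20 ± 0.15) and 1.51-fold below at day 7 (-0.59 ± 0.16). The brown change exceeded the white change by 0.61 ± 0.23.

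Cfi, the protease that inactivates C3b and C4b, lay at the floor in brown cells at day 4 and above it on all day 7 arrays. On the brown day 4 arrays it read 1.40, 2.82, 0.909, 1.47 and 1.78, at the floor on 5 of 5. On the brown day 7 arrays it read 25.3, 53.8, 30.2, 53.2 and 39.7. At white day 4 it ran from 4.84 to 146 with a median of 63.5 and lay at the floor on 1 of 8 arrays, and at white day 7 it ran from 342 to 609 with a median of 453. In both cell types all day 7 arrays thus lay above all day 4 arrays, and brown day 7 lay within the wide range of white day 4. Because brown day 4 was at the floor, its differences are bounds against the floor of 8.22: brown day 7 was at least 4.71-fold above brown day 4, and white day 4, with 1 of its own 8 arrays at the floor, at least 5.39-fold above it. White day 7 was above white day 4 by 3.33 ± 0.46 (10.1-fold), and brown minus white at day 7 was -3.53 ± 0.52 (11.5-fold lower). The comparison of the brown and white changes has no size of its own for this gene: it was -1.10 with the floor of 8.22, -2.44 with a floor of 29.0, the 40th percentile of all values, and 1.17 with no floor other than a signal of 1. With the higher floor the brown day 7 minus day 4 difference was 0.46 and no longer past the threshold. The brown minus white difference at day 4 was then -1.05.

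Gm4788 read 20.2, 17.4, 7.52, 11.6 and 0.929 on the brown day 4 arrays, the floor on 2 of 5. It read 98.0, 90.3, 59.1, 81.9 and 54.3 on the brown day 7 arrays. At white day 4 it ran from 14.3 to 100.3 with a median of 47.8, and at white day 7 from 105 to 157 with a median of 114. The groups at day 7 lay above those at day 4 in both cell types, white day 7 was above every other array, and brown day 7 lay within the range of white day 4. Day 7 minus day 4 was 2.61 ± 0.40 in brown cells (6.10-fold) and 1.53 ± 0.34 in white cells (2.89-fold). Brown minus white was -1.78 ± 0.36 at day 4 (3.42-fold lower) and -0.70 ± 0.38 at day 7 (1.62-fold lower). The day 7 difference was not past the threshold in 34 of 35 alternative fits, so not in all of them. Its error rests on the spread of all 4 groups, with SDs of log2 signal of 0.60, 0.38, 1.01 and 0.22 in group order. The brown change exceeded the white change by 1.08 ± 0.53. Sizes that rest on brown day 4 depend on the floor: with a floor of 29.0 the brown change was 1.36 and brown minus white at day 4 was -0.74, and the excess of the brown over the white change was 0.04.

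**Figure D2:**
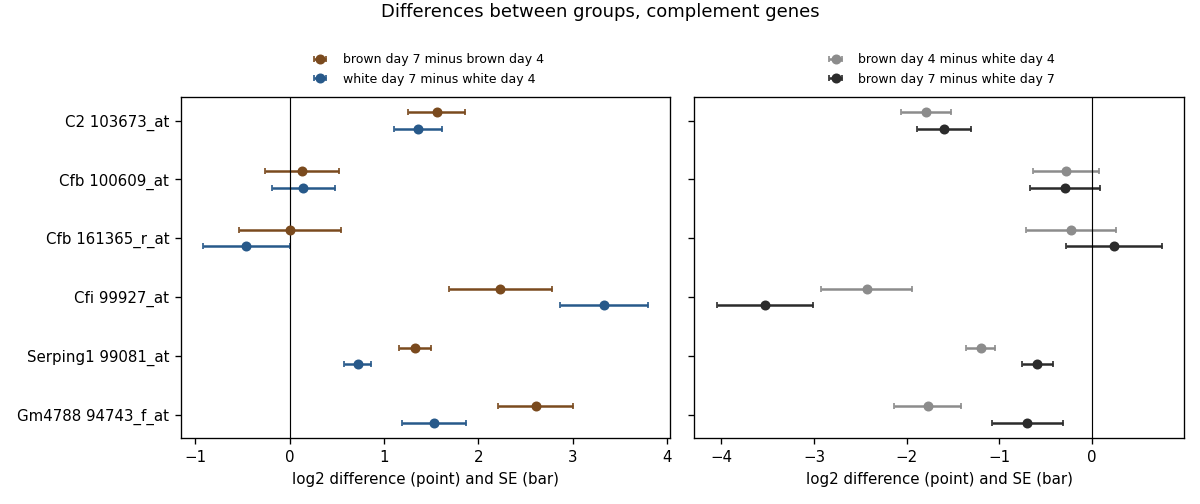
Log2 differences of the 6 probe sets in the fit, points with bars of 1 SE; left, day 7 minus day 4 in brown (5 and 5 arrays) and white cells (8 and 6), right, brown minus white at each day. The points of C2, Cfi, Serping1 and Gm4788 lie right of 0 on the left and left of 0 on the right, and the Cfb points lie within 1 SE of 0. The Cfi points that involve brown day 4 are bounds.

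The array numbers fall into runs of adjacent or near numbers of 1 cell type, which mix both days except for 45 with 51. What a number stands for is not in the labels. Within the brown runs 05 to 08, 09 to 12, and 19 with 22, the C2 difference between day 7 and day 4 was 1.36, 2.01 and 1.04. Within the white runs 33 to 36, 37 to 40 and 41 to 44 it was 1.19, 0.90 and 1.95. Serping1 gave 1.11, 1.52 and 1.40 in brown and 0.72, 0.54 and 0.90 in white runs. Every run thus had the same sign for both genes. Gm4788 gave 2.33, 2.83 and 2.72 in brown and 0.61, 0.94 and 1.95 in white runs. Cfi gave 2.17, 2.29 and 2.27 in brown runs, with day 4 at the floor in each, and 2.43, 2.11 and 3.65 in white runs. Cfb (100609_at) changed sign between runs, with 0.24, 0.32 and -0.47 in brown and -1.08, 0.17 and -0.04 in white cells. The white day 4 arrays 45 and 51 have no day 7 array beside them in number.

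**Figure D3:**
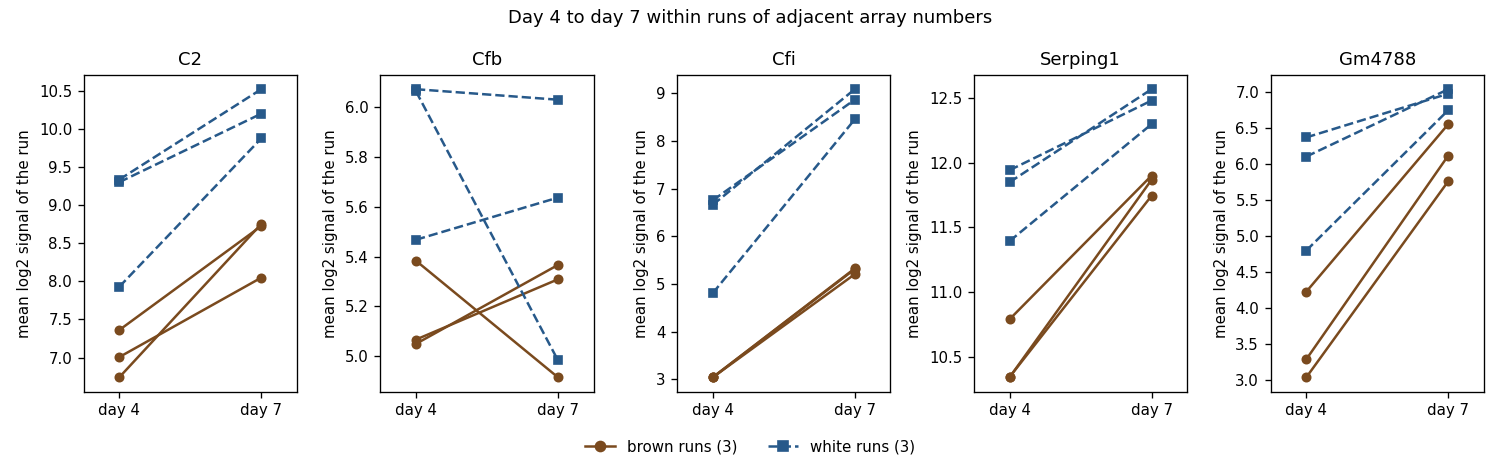
Mean log2 signal at day 4 and day 7 within each run of adjacent or near array numbers that holds both days. There are 3 brown runs (circles, solid) and 3 white runs (squares, dashed), for the best probe set of each gene. Axes differ between panels. The lines of C2, Cfi, Serping1 and Gm4788 go up in all 6 runs, while those of Cfb go both ways.

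RNA integrity differed between the groups in one place that touches these values. The signal ratio of the 3' to the 5' probe set of Gapdh rises when RNA is broken down. It was 0.884 ± 0.0825 (SD, n = 5) at brown day 4, 0.889 ± 0.0379 (SD, n = 5) at brown day 7 and 0.943 ± 0.0955 (SD, n = 8) at white day 4. At white day 7 it was 1.36 ± 0.204 (SD, n = 6). With the log2 of this ratio as a covariate, white day 7 minus day 4 became 1.23 ± 0.45 for C2, 0.84 ± 0.25 for Serping1, 2.68 ± 0.79 for Cfi and 1.27 ± 0.59 for Gm4788. The differences kept their direction with wider errors, and the number of these probe sets past the threshold went from 4 to 0, as the share of all probe sets went from 19% to 0.441%. Brown minus white at day 7 became -1.45 ± 0.51, -0.73 ± 0.29, -2.77 ± 0.90 and -0.40 ± 0.67 for the same genes, none past the threshold, where 3.26% of all probe sets were. The brown day 7 minus day 4 differences, between groups of like ratio, were 1.56 ± 0.31, 1.34 ± 0.17, 2.22 ± 0.54 and 2.60 ± 0.41 with the covariate. The part of RNA integrity in the white day 7 values was not tested beyond this.

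The wider complement system was read through a list of 53 further genes, of which 29 had a probe set and 14 passed the filter, each represented by its brightest probe set. In brown cells 3 of 14 rose from day 4 to day 7 and 0 fell, with 13% of all genes called, and their median difference was 0.29 against 0.02 for all genes. In white cells 5 of 14 rose and 0 fell, with 19.5% of all genes called, and the median was 0.46 against 0.02. Brown cells had lower levels of 2 of 14 at day 4 (24.5% of all genes called, median -0.03 against 0.01) and of 4 of 14 at day 7 (25.5% called, median -0.26 against 0.00), and higher levels of 0. By limma 0 of 14 differed between the brown and white changes (1 at an unadjusted p under 0.05), with 0.207% of all genes called. At day 4 the share of the list that was called was below that of all genes. Vtn lay above the filter on 0, 2, 0 and 3 arrays in group order, and C1qa on 1, 0, 2 and 5. Both thus entered the fit through day 7 arrays, C1qa through those of white cells. The filter therefore favoured their rise in white cells and, for C1qa, the lower level in brown cells at day 7. With a stricter filter of 12 arrays neither was in the fit, and 3 of the list rose in white cells.

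Among the fluid-phase regulators, Clu, which encodes clusterin, an inhibitor of the terminal attack complex and a chaperone, had the most stable change. Probe set 95286_at ran from 121 to 199 at brown day 4, 260.1 to 395 at brown day 7, 161 to 341 at white day 4 and 399 to 812 at white day 7, without overlap between the days in either cell type. It rose by 1.07 ± 0.21 in brown cells (limma, adjusted p = 0.00110) and by 1.34 ± 0.18 in white cells (limma, adjusted p = 2.63e-05). It was lower in brown than in white cells by -0.65 ± 0.18 at day 4 (adjusted p = 0.0119) and -0.92 ± 0.20 at day 7 (adjusted p = 0.00111). The day 7 difference was not past the threshold once the Gapdh ratio entered the fit (limma, adjusted p = 0.0703, over all its alternatives 0.000351 to 0.0703). The second Clu probe set, 161294_f_at, changed in the same direction in all 4 comparisons. Vtn, which encodes vitronectin, a matrix protein that also binds the terminal complex, rose in white cells by 1.39 ± 0.39 (limma, adjusted p = 0.0136). In brown cells its difference was 1.33 ± 0.46 (limma, adjusted p = 0.0566). It lay at the floor on 3 of 5 brown day 4 and 4 of 8 white day 4 arrays, so these sizes depend on the floor. With the floor of 29.0 the white difference was 0.36, and with the covariate the white adjusted p was 0.282 (range over its alternatives 0.00359 to 0.282).

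Among the membrane regulators, Cd59a, whose product blocks assembly of the attack complex on the cell's own membrane, had signals of 94.1 to 150.1 at brown day 4, 161 to 249 at brown day 7, 108 to 174 at white day 4 and 209 to 318 at white day 7. The days did not overlap in either cell type. It rose by 0.94 ± 0.15 in white cells (limma, adjusted p = 0.000150, but 0.182 with the covariate, the highest of a range from 2.08e-05). In brown cells it rose by 0.60 ± 0.17 (limma, adjusted p = 0.0198), a call lost when array 10 (0.0711) or 19 (0.0566) of day 4 or array 08 of day 7 (0.0797) was left out, in a range from 0.00442 over its alternatives. At day 7 it was lower in brown than in white cells by -0.51 ± 0.16 (limma, adjusted p = 0.0219), a call lost without brown day 7 array 07 or 22 or white day 7 array 36, 39 or 40 (0.0523 to 0.0558), and with the covariate (-0.27, 0.716), in a range from 0.00371. Cr1l, the mouse gene for the membrane cofactor Crry, gave different answers by probe set. Its 161648_at rose by 0.44 ± 0.15 in white cells (limma, adjusted p = 0.0357), a call lost in 9 of 24 fits that left out 1 array and in 4 of 11 other alternatives (range 0.00863 to 0.939), and 0.08 in size with the covariate. Its 101879_s_at differed there by 0.01 ± 0.14 and was instead higher in brown than in white cells at day 4, by 0.43 ± 0.14 (limma, adjusted p = 0.0303). Cd55, another membrane regulator, did not pass the filter, with medians of 4.01, 4.86, 15.3 and 18.8 in group order.

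**Figure D4:**
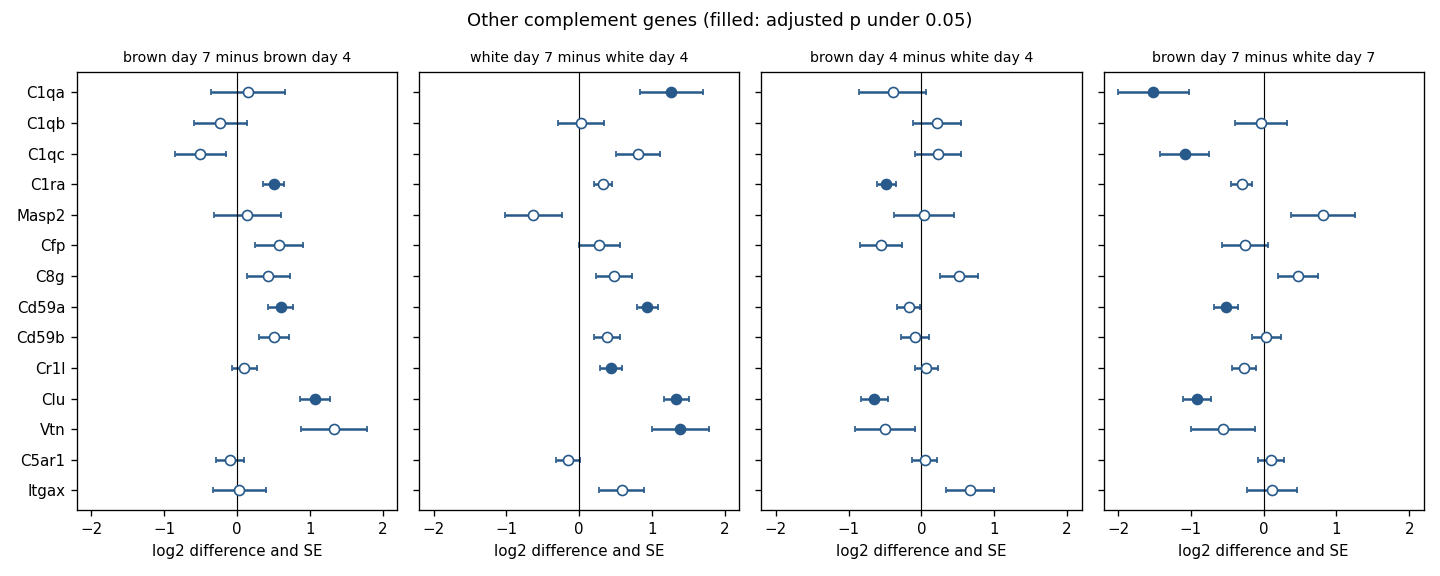
Log2 differences (points) with 1 SE (bars) of the 14 other complement genes in the fit, in the 4 comparisons; filled points have an adjusted p under 0.05 over all 8397 probe sets. The filled points are 3 and 5 to the right of 0 in the comparisons of days and 2 and 4 to its left in those of cell types.

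At the start of the classical route, C1ra encodes a protease of C1, a target of the C1 inhibitor. Its 95415_f_at ran from 267 to 410.1 at brown day 4, 353 to 521 at brown day 7, 364 to 619 at white day 4 and 489 to 627 at white day 7. It rose in brown cells by 0.51 ± 0.14 (limma, adjusted p = 0.0208), a call lost when array 09 of day 4 (0.0732) or array 08 (0.0596) or 12 (0.0666) of day 7 was left out, in a range from 0.00374 over its alternatives. In white cells its difference was 0.33 ± 0.12 (limma, adjusted p = 0.0620). At day 4 it was lower in brown than in white cells by -0.48 ± 0.13 (limma, adjusted p = 0.00858, range 0.00411 to 0.0358). The second C1ra probe set, 95414_i_at, had the opposite sign there, 0.14 ± 0.17, and passed the threshold in none of the 5 comparisons. At day 7 the signs differed too, 0.26 ± 0.18 for 95414_i_at and -0.30 ± 0.14 for 95415_f_at. The suffix f of 95415_f_at marks, as for Gm4788, probes that may bind several transcripts of a family.

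C1qa, C1qb and C1qc encode the chains of C1q, the recognition part of C1, made mainly by macrophages. C1qa had medians of 10.5, 13.7, 18.0 and 49.0 in group order, and C1qc had 67.6, 49.6, 57.8 and 87.3. At day 7 brown cells had less of C1qa, by -1.52 ± 0.49 (limma, adjusted p = 0.0230), and of C1qc, by -1.09 ± 0.34 (limma, adjusted p = 0.0193). The C1qa call was lost without brown day 7 array 07 (0.0511) or 12 (0.0721) and with the runs as a random block (0.0534), in a range from 0.00174. The C1qc call was lost without brown day 7 array 11 (0.0852) or white day 7 array 36 (0.0554) and with the covariate (0.168), in a range from 0.00875. In white cells C1qa rose by 1.27 ± 0.43 (limma, adjusted p = 0.0414), a call lost in 9 of 24 fits without 1 array and in 5 of 10 other alternatives (range 0.00722 to 0.0880), and C1qc differed by 0.81 ± 0.30 (limma, adjusted p = 0.0588). The C1qa sizes depend on the setting: with the floor of 29.0 they were -0.70 at day 7 and 0.51 in white cells, and with the covariate -3.23 and 2.75. C1qb was read by 162276_i_at, which passed in no comparison, and by 96020_at, at the floor on every array but 5 of 6 of white day 7, where its median was 16.5.

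Marker lists of other cell types were read beside these genes. Of 13 macrophage and leukocyte markers, all with a probe set, 9 entered the fit, and the summed signal of the 13 ran from 565 to 674 at brown day 4, 678 to 954 at brown day 7, 683 to 1975 at white day 4 and 870.1 to 1482 at white day 7. Lyz2, the lysozyme gene of these cells, rose by 2.21 ± 0.48 in brown (limma, adjusted p = 0.00284) and 2.24 ± 0.41 in white cells (limma, adjusted p = 0.000581), the 1 of 9 that rose in each, where 13% and 19.5% of all genes were called. Brown cells had less of 3 of 9 at day 4 and of 4 of 9 at day 7, where 24.5% and 25.5% of all genes were called, among them Csf1r, a macrophage receptor gene, by -1.24 ± 0.21 (limma, adjusted p = 0.000120) and -0.96 ± 0.23 (limma, adjusted p = 0.00252). Tyrobp, called at day 7 but not at day 4, lay above the filter on 0, 0, 1 and 4 arrays in group order. The filter therefore favoured its lower level in brown cells. The defining markers Ptprc and Adgre1 stayed near the floor in all groups, with highest signals of 17.3 and 16.3, and Fcer1g was at the floor on every brown array. Of 7 hepatocyte markers, the cells that make most plasma complement, 6 had a probe set and 1, Alb, entered the fit without a call, with summed signals of 41.6 to 123 over all arrays. Of 9 adipocyte markers, 4 rose with the day in brown cells and 7 in white cells, against the same 13% and 19.5%, and the others, Fabp4 among them in both, did not pass. Their sums were 5419 to 10501 at brown day 4, 11756 to 13966 at brown day 7, 5363 to 9703 at white day 4 and 13241 to 18066 at white day 7. Of the 2 white-enriched stroma markers, Tcf21 and Hoxc9, both transcription factor genes, both were lower in brown cells on both days and neither passed between the days. Their summed signal was 25.4 to 43.4 and 27.1 to 51 in brown cells at day 4 and day 7, and 344 to 548 and 304 to 561 in white cells. Tcf21 differed by -4.82 ± 0.22 at day 4 (limma, adjusted p = 1.40e-14) and -5.09 ± 0.23 at day 7 (limma, adjusted p = 1.66e-14). It lay above the filter on 0, 0, 8 and 6 arrays in group order, so the filter favoured its lower level in brown cells. Its signal was at the floor on 3 of 5 brown day 4 and 1 of 5 brown day 7 arrays, so these sizes depend on the floor. Of 4 endothelial markers in the fit, Cdh5 and Tie1 were higher in brown cells on both days and Tie1 rose in brown cells. Pecam1 and Kdr passed in no comparison. Their brown minus white differences were -0.40 ± 0.32 and -0.45 ± 0.49 at day 4, and -0.32 ± 0.34 and 0.69 ± 0.52 at day 7. Of 4 brown fat markers 3 entered the fit, all higher in brown cells on both days, with 2 rising in brown and 1 in white cells. Zic1 lay above the filter on 5, 5, 0 and 0 arrays in group order and Cidea on 5, 5, 1 and 0. The filter therefore favoured their higher level in brown cells. Ucp1 did not pass the filter, with medians of 19.4, 53.1, 5.34 and 8.71 in group order. Of 6 mesothelial and epithelial markers, 5 had a probe set and 2 entered the fit. Upk3b fell in white cells, and Krt19 was higher in brown cells at day 4. Upk3b had the opposite sign there, -0.86 ± 0.34 for brown minus white, not past the threshold. Krt8, Krt18 and Msln did not pass the filter. Krt8 had medians of 7.78, 7.64, 32.5 and 17.1 in group order, and Krt18 had 3.54, 12.3, 24.6 and 17.2. The 1 neutrophil marker in the fit passed in no comparison. The part of these cell types in the complement values was not tested.

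Among the terminal components, properdin and the receptors, no gene passed the threshold in any comparison. C8g, a chain of the attack complex, Cfp (properdin, which stabilises the alternative convertase), Masp2, a lectin-route protease, Cd59b, C5ar1 (the receptor of C5a) and Itgax, a chain of a complement receptor, were in the fit. C5ar1 differed by -0.09 ± 0.19 in brown and -0.15 ± 0.16 in white cells. C3ar1, the receptor of C3a, did not pass the filter, with medians of 13.3, 18.2, 24.2 and 21.4 in group order. Cfhr2, the relative of Gm4788 whose promoter is printed above, did not pass it either: 94993_f_at had medians of 5.80, 14.9, 13.0 and 34.4 in group order, and 94994_at lay at the floor on all arrays but 1 of brown day 7. C4b had no probe set named by symbol alone and was not analysed here.

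C2 and Cfb lie side by side in the class III region of the histocompatibility complex, between Nelfe and Zbtb12 in the RefSeq table of GRCm38.p6. Of the 8 neighbours with a tested probe set, none rose at day 7 in brown cells, where 406 of 6281 genes did. Between the days 13% of all genes were called in brown and 19.5% in white cells. Between the cell types 24.5% were called at day 4 and 25.5% at day 7. Nothing is read from the counts of neighbours. Nelfe, a subunit of the complex that pauses RNA polymerase, fell by 1.11 on the log2 scale in brown cells (SE 0.22; limma, adjusted p = 0.00136) and by 0.70 in white cells (SE 0.19; limma, adjusted p = 0.0102). Ehmt2, a histone methyltransferase gene, fell by 0.34 in brown (SE 0.10; limma, adjusted p = 0.0238) and by 0.41 in white cells (SE 0.09; limma, adjusted p = 0.00182), and Dxo fell by 0.71 in white cells (SE 0.18; limma, adjusted p = 0.00718). Among the 8, the one that rose between the days was Tnxb, in white cells and by 1 of its 2 probe sets. Between the cell types, Tnxb, a matrix protein gene a few genes away, was lower in brown cells by -1.68 ± 0.28 at day 4 (limma, adjusted p = 9.98e-05) and -2.02 ± 0.30 at day 7 (limma, adjusted p = 1.65e-05) with 102916_s_at, and its second probe set had the same sign. Tnxb was higher in white cells at day 7 than at day 4 by 0.82 ± 0.27 with that probe set (limma, adjusted p = 0.0336) and by 0.74 ± 0.27 with 161907_s_at (limma, adjusted p = 0.0587). Zbtb12 was lower in brown cells at day 4 by -1.26 ± 0.40 (limma, adjusted p = 0.0226), Skiv2l was lower at day 7 by -0.45 ± 0.11 (limma, adjusted p = 0.00385), and Dxo was higher at day 7 by 0.60 ± 0.20 (limma, adjusted p = 0.0311). Zbtb12 lay above the filter on 0, 0, 3 and 2 arrays in group order, so the filter favoured its lower level in brown cells. Stk19 and Cyp21a1 passed in no comparison.

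Across the 24 arrays the signals of C2, Serping1, Cfi and Gm4788 went together. Pearson's r of log2 signal, which holds the group differences as well as the spread within groups, was 0.951 for C2 with Serping1, 0.907 for C2 with Cfi, 0.880 for C2 with Gm4788, 0.913 for Serping1 with Gm4788, 0.890 for Cfi with Gm4788 and 0.863 for Cfi with Serping1. With each group's mean taken off, it was 0.819, 0.543, 0.667, 0.623, 0.841 and 0.472 in the same order, so arrays high for one gene within a group tended to be high for another. Cfb had r of 0.176 to 0.378 to the other genes, and with group means taken off -0.01 with C2, -0.07 with Serping1, 0.429 with Cfi and 0.389 with Gm4788. These arrays share their probes' scale and group structure, and no p is given. Among all other tested genes, C2 was most like Lum, which encodes the matrix protein lumican (r = 0.960, Spearman's rho = 0.978), followed by Serping1 itself. Serping1 was most like Serpina3n, another serine protease inhibitor gene (r = 0.975, rho = 0.927), and Cpq, a peptidase gene (r = 0.962, rho = 0.940). Cfi was most like Lum (r = 0.932, rho = 0.933) and Myh11, a smooth muscle myosin gene (r = 0.931, rho = 0.901). Gm4788 was most like Dcn, which encodes the matrix protein decorin (r = 0.914, rho = 0.920), and Fap, a fibroblast surface protease gene (r = 0.914, rho = 0.825), after 3 probe sets without a single symbol. Cfb was most like Adcy6 (r = 0.727, rho = 0.657) and Kcnn4 (r = 0.724, rho = 0.696), after 1 probe set without a single symbol.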

How the data were processed

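The authors deposited probe set signals, linear intensities that MAS5 produced, per the submitters' processing notes (version not given in the sources used here). MAS5 subtracts mismatch signal, so low values are noisy. The members and lists were chosen with earlier results of these data known. Each array was scaled to a 2% trimmed mean of 150, values under the floor of 8.22 were raised to it before taking log2. Probe sets above the 40th percentile of their array on at least 5 arrays were kept, and 66 control probe sets were left out. Median signal per array was 41.9 to 59.0. Precision is limited by the number of arrays, which hold no read depth. Of 12488 probe sets, 10855 had 1 symbol, 396 several and 1237 none here. The 4 group means were fitted with limma 3.58.1 (lmFit, eBayes with trend) in R 4.3.3, two-sided, 20 residual degrees of freedom, Benjamini-Hochberg over 8397 probe sets, threshold 0.05. The fit was tested on simulated data. Named genes were every member, every other complement gene past the threshold and a few preset ones, the neighbours of C2 and Cfb, and the 2 genes most like each member by Pearson's r. Promoters came from RefSeq's GRCm38.p6 table, aligned with Biopython 1.88. Alternatives were another floor, filter, scaling, array weights, only the groups compared, mean of probe sets, the Gapdh ratio and runs as a random block. Others left out white day 4 arrays 45 and 51 together, or each array in turn.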

Additional observations from a re-analysis of the deposited data

How the results depend on the processing

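No paired analysis was possible because no array number is shared between groups. Instead, a random block of runs of adjacent or near numbers was used (consensus correlation 0.209). It gave 4, 4, 4, 3 and 0 member probe sets and 4, 7, 2, 3 and 0 other complement genes past the threshold in the 5 comparisons. No member difference changed sign where it had passed the threshold. Leaving out each array in turn gave 4 to 4 member probe sets past the threshold in brown and in white day 7 against day 4 and in brown against white at day 4, 3 to 3 at day 7 and 0 to 0 for the difference of the changes. It gave 1 to 4 other complement genes in brown day 7 against day 4 (1 without brown day 7 array 08) and 3 to 6 in white (3 without white day 4 array 41 or 45 or white day 7 array 35, 36, 39 or 44). Brown against white gave 2 to 2 at day 4, 2 to 4 at day 7 (2 without brown day 7 array 07 or white day 7 array 36) and 0 to 0 for the difference of the changes. With the floor at the 40th percentile 1 member, Cfi, passed for the difference of the changes. With that floor Cfi no longer passed in brown day 7 against day 4, where 3 member probe sets did. In white day 7 against day 4, 3 other complement genes passed with a stricter filter (12 arrays) and 3 with only the groups compared. With the mean of a gene's probe sets, 1 passed in brown against white at day 4. With the Gapdh ratio as a covariate, 1 other complement gene and 0 members passed in white day 7 against day 4, and 1 and 0 in brown against white at day 7. With these ratios the median SE over all probe sets went from 0.193 to 0.325 and from 0.216 to 0.371. Outside the fits that left out 1 array, 310 member values moved by less than the spread within groups and 9 by more, all on Cfi or Gm4788. Of the other complement values, 136 kept their call and 15 lost it. Low signals, near the floor, limit Cfi and Gm4788 at brown day 4, Cfb, Vtn and C1qa.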
